A study of Drosophila melanogaster with 4 samples.

Results

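The broad autosomal H4K16ac clusters are wide stretches of this histone mark on the large autosome arms in fly heads. They were chosen by width alone from the authors' combined list of enriched regions: each lies on the autosome arms 2L, 2R, 3L or 3R and is 4000 bp or more wide. The rule found 443 of the 4063 clusters on these arms (10.9%), and of the 5728 enriched clusters in the whole list. They covered 2.40 Mb, which is 23.5% of the covered length on these arms and 2.48% of the 96.6 Mb of arm sequence.

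The data came from chromatin immunoprecipitation followed by sequencing (ChIP-seq) on nuclei from heads of the wild-type Drosophila melanogaster strain Oregon-R (Oregon-R-modENCODE), labelled Mixed Adult with no sex given. The antibody was directed against H4K16ac. The samples were 2 ChIP replicates and 2 input replicates, all of the same strain, genotype and stage, and the flies were raised in population cages and so were pooled. The 3 region lists used here are 1 for each ChIP replicate and the combined list. No input file was used here. The labels do not state whether separate fly collections gave the replicates, and their spread may thus be technical. The lists hold no read numbers, and the depth of the libraries is therefore unknown.

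H4K16ac is an acetyl group on lysine 16 of histone H4, a mark that loosens the packing of neighbouring nucleosomes. In Drosophila the acetyltransferase MOF places it. MOF works in the MSL complex, which spreads the mark over transcribed genes of the male X in dosage compensation, and in the NSL complex, which is found at promoters of active genes on all chromosomes. Broad clusters on the autosomes are thus outside the chromosome for which wide domains of the mark are best known. An annotation or genome of the build used here (FlyBase release 5, per the file headers) was not used, so regions are given by position, with no gene names and no sequence.

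Most members were only moderately wide. The median width was 4971 bp, 227 of the 443 (51.2%) were under 5000 bp, 26 were 8000 bp or wider and 5 were 10 kb or wider. The widest measured 17913 bp. The X, by comparison, held 416 clusters of at least 4000 bp, and 161 of them were wider than the widest autosomal cluster. The threshold cut a continuous range of widths. The members just inside it measured 4007, 4009 and 4015 bp, with scores of 0.44, 0.66 and 0.48, and all of them lay on 3R. The autosomal clusters just outside it measured 3998, 3998 and 3997 bp, with scores of 0.40, 0.58 and 0.71, on 2L, 3L and 3R. One of these outside clusters, on 3L from 18673583 to 18677580, met a cluster of 4030 bp in replicate 2.

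All 4 arms carried broad clusters, at unequal density in the combined list. 2R held 117 members (5.53 per Mb), 3R held 147 (5.27 per Mb), 2L held 91 (3.95 per Mb) and 3L held 88 (3.59 per Mb). Their share among all clusters of the arm varied less, from 9.11% on 3L through 11.0% on both 2L and 2R to 12.2% on 3R. Median widths were close, between 4849.5 bp on 3L and 5027 bp on 2R, and so were median scores, between 0.67 on 3L and 0.69 on 2L. The arms varied more in the number of broad clusters than in their width or score. By number of broad clusters, not per Mb, the order of the arms was not the same in each replicate list. The arms were 21.1 to 27.9 Mb long, so an order by number can differ from an order by density. Density was not worked out for the replicate lists, so its order is shown for the combined list only. 2R, the densest arm there, held fewer broad clusters than 2L and 3R in replicate 1. With the same width rule, replicate 1 gave 63 on 3R, 49 on 2L, 42 on 2R and 34 on 3L, and replicate 2 gave 98 on 3R, 73 on 2R, 63 on 3L and 62 on 2L.

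The 10 widest members measured 9.00 to 17.9 kb, and 5 of them lay on 2R, 4 on 3R, 1 on 2L and 0 on 3L. The widest, on 2R from 5428958 to 5446870, had a score of 0.93. It was made up of 2 clusters in each replicate, the longer of which spanned 13589 bp (replicate 1) and 15198 bp (replicate 2), with a gap of 832 bp and 589 bp between them, respectively. A second very wide member lay on the same arm from 5470214 to 5479833. It was 1 unbroken cluster in each replicate, of 9344 and 9606 bp, and had a score of 1.39, the highest among the 10 widest.

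The next widest members differed in how the replicates held them. On 3R, the member from 12072175 to 12084139 (score 0.71) was 4 clusters in replicate 1, the longest of 4009 bp, and 1 cluster of 11644 bp in replicate 2. The opposite was seen on 2L, where the member from 6958978 to 6969429 (score 0.80) was 1 cluster of 10237 bp in replicate 1 and 2 clusters in replicate 2, the longer of 5596 bp. On 3R from 5902097 to 5912471 the replicates matched, with 1 cluster of 10279 bp and 1 of 10261 bp (score 1.01). In all, 3 of the 10 widest were 1 unbroken cluster in each replicate.

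The remaining 5 of the 10 widest were 9.00 to 10.7 kb. On 2R from 19941917 to 19952658 (score 0.64) replicate 1 held 3 clusters, the longest of 2954 bp, and replicate 2 held 2, the longer of 7418 bp. On 3R, the member from 5770734 to 5780701 (score 0.74) was 1 cluster of 9513 bp in replicate 1 and 2 clusters in replicate 2, the longer of 7044 bp. The 3R member from 16777968 to 16787342 (score 0.81) was unbroken in each, at 7607 bp in replicate 1 and 9153 bp in replicate 2. Of the remaining 2R members, that starting at 10054714 and ending at 10063739 scored 0.74, and that starting at 16880293 and ending at 16889293 scored 0.56. Each was 2 clusters in each replicate. The gaps in the first were 87 bp and 133 bp in replicates 1 and 2, and those in the second were 11 bp and 200 bp. Clusters covered 89.9 to 93.6% of their length in each replicate. In 9 of the 10 widest, each replicate held a cluster of at least 4000 bp, also where the member was broken.

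The members of highest score were not the widest ones, and they were unbroken. The 5 of highest score were 4.92 to 7.22 kb wide with scores of 1.44 to 1.68, and each was 1 cluster in each replicate. The highest lay on 3R from 1457219 to 1464434 and was 7091 bp wide in replicate 1 (score 1.62 in that list) and 7165 bp in replicate 2 (score 1.75 in that list). The others, with scores of 1.50, 1.47, 1.46 and 1.44, lay on 3R from 4475258 to 4480174, on 2R from 19268414 to 19275285, on 2L from 2747111 to 2753708 and on 3L from 1773678 to 1778751. Each of the 4 arms was thus represented, and none of these 5 was among the 10 widest.

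Scores increased only loosely with width among the members. The score is the authors' value per region. The sources used here do not give its scale, so differences are in score units and are not read as folds. Width and score come from the same region calls, and the members were selected on width, so the scores are a description with no test. Across the 443 members, which share the same libraries, Spearman's rho between width and score was 0.23 and Pearson's r was 0.23. The median score was 0.64 for members of 4000 to under 5000 bp (n = 227), 0.67 for those up to 6000 bp (n = 111), 0.75 up to 7000 bp (n = 48), 0.72 up to 8000 bp (n = 31) and 0.78 for 8000 bp or more (n = 26). In each class the middle 50% of members spanned more than the difference between the lowest and the highest of these medians.

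Broad clusters had higher scores than narrow ones on the same arms. The median score was 0.68 for the members (quartiles 0.55 and 0.83, range 0.29 to 1.68) and 0.39 for the 3620 narrower clusters (quartiles 0.30 and 0.54, range 0.013 to 2.92), a difference of 0.29. With the same width rule in each replicate list the difference was 0.26 in replicate 1 and 0.30 in replicate 2 (mean 0.28 ± 0.035, SD, n = 2). The ranges overlapped widely: 528 narrow clusters (14.6%) reached the median of the members, 3 narrow clusters were above the highest member, and 20 members (4.51%) were below the median of the narrow clusters. No broad cluster, however, was as weak as the 891 narrow clusters below 0.29.

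The size of this difference rested in large part on clusters under 2000 bp. Among narrow clusters the score was not simply higher with width. Its median was 0.36 at 1000 to under 1250 bp, 0.24 at 1500 to under 1750 bp, 0.46 at 2000 to under 2250 bp and 0.58 at 2500 to under 3000 bp, as the plot of score against width shows. For all clusters under 2000 bp the quartiles were 0.23 and 0.35, and scores varied at nearly equal width. At 1500 to under 1750 bp, for example, the quartiles were 0.17 and 0.31. What part the region calling has in these medians, and so in the difference of 0.29, was not tested. At 3000 to under 4000 bp the median was also 0.58, near the 0.64 of the narrowest members. Against the 1879 narrow clusters of at least 2000 bp alone, a comparison added after these scores were seen, the members were higher by 0.15 in the combined list. In the replicate lists the same comparison gave 0.11 and 0.17 (mean 0.14 ± 0.042, SD, n = 2).

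**Figure D1:**
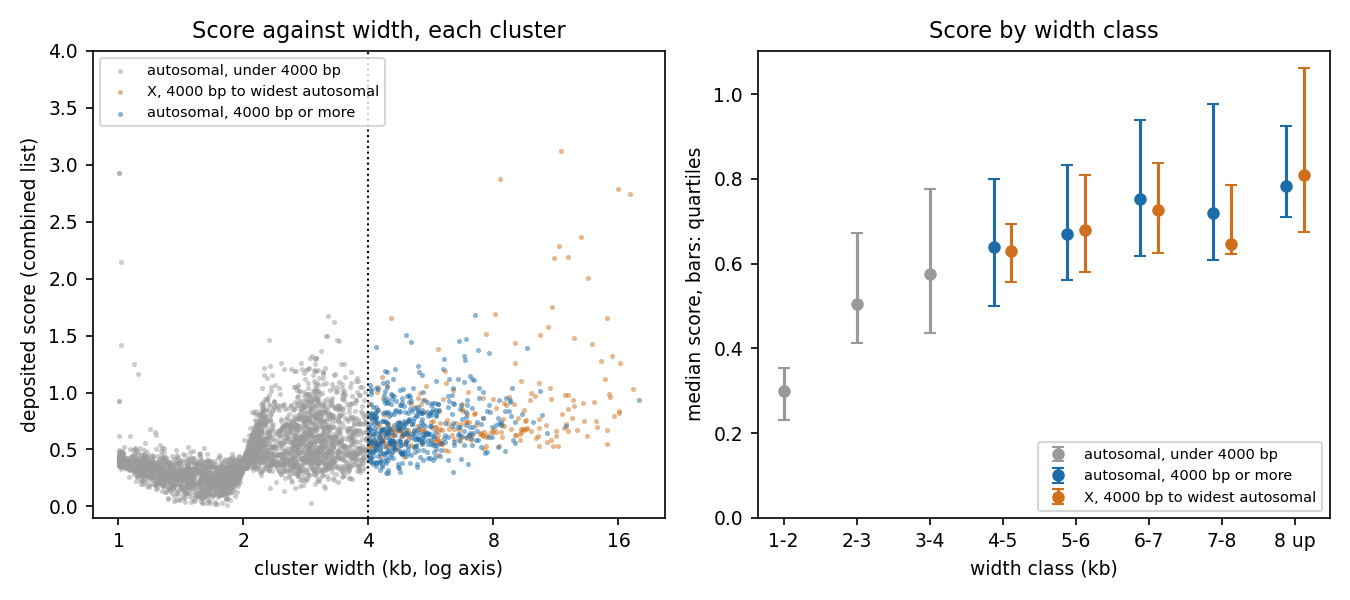
Left, deposited score of the combined list (vertical axis) against cluster width in kb (log axis), 1 point per cluster, with a dotted line at 4000 bp. Right, median score (points) and quartiles (bars) by width class in kb. Scores of autosomal clusters are mostly lower below 2 kb and spread out more above it. Members and X clusters of equal width overlap in each class.

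At equal width, autosomal and X clusters had nearly the same score in the combined list. The 255 X clusters between 4000 bp and the width of the widest member had a median score of 0.68, equal to that of the members at this rounding. Class by class the medians were 0.63 on the X against 0.64 on the autosomes at 4000 to under 5000 bp, 0.68 against 0.67 up to 6000 bp, 0.73 against 0.75 up to 7000 bp, 0.65 against 0.72 up to 8000 bp and 0.81 against 0.78 at 8000 bp or more. Neither chromosome was higher in every class. Weighted to the widths of the members, the autosomal clusters were higher by 0.010. In the last class the X clusters were also wider, with a median of 10966 bp against 8803.5 bp.

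This near equality was not found in the replicate lists. There the autosomal clusters were lower than X clusters of equal width: the difference, autosomal minus X, was -0.20 in replicate 1 and -0.057 in replicate 2 (mean -0.13 ± 0.098, SD, n = 2). Both sets were drawn anew in each list by the width rule. They held 188 autosomal and 172 X clusters in replicate 1, and 296 and 178 in replicate 2. The sign thus depended on the list and on the clusters in it. The spread between the replicates was nearly as large as the mean. Both tails also differed in the combined list. Above the highest score of any member, 1.68, lay 11 X clusters of equal width. Below the lowest score of the X clusters, 0.43, lay 41 members. These counts were not weighted by width, and the X set was wider, with a median of 6642 bp against 4971 bp.

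Nearly all broad clusters were found in both replicates. A cluster overlapped by at least 1 bp in each replicate list was found for 438 of the 443 members (98.9%, exact Clopper-Pearson 95% interval 97.4 to 99.6%), against 63.0% of all autosomal clusters of the combined list. For narrow autosomal clusters the share was 58.6% (2120 of 3620), and it was low mainly below 2000 bp: it was 25.4% there (n = 1741), 87.8% at 2000 to under 3000 bp (n = 1300) and 92.6% at 3000 to under 4000 bp (n = 579). The clusters nearest to the members in width were thus also found in both replicates in most cases. For X clusters of equal width the share was 92.2% (235 of 255, interval 88.1 to 95.1%). A wide region has more length in which to meet another, and the combined list was made for these same replicates, so these shares are descriptions. The intervals cover counting error only, and clusters are not replicates. No member was found in neither replicate, which allows a share of up to 0.677% taken as 3 counts of 443, or 0.829% by the upper bound of the exact two-sided interval, whereas 796 narrow clusters (22.0%) and 1 X cluster of equal width were found in neither.

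The 5 members found in 1 replicate only were among the weakest, with scores of 0.29 to 0.40. They were picked out after their values were seen. Replicate 2 alone held those on 2R from 16200803 to 16205112, on 3L from 701495 to 705957, and on 3R from 4087452 to 4091866 and from 13224420 to 13228810. Replicate 1 alone held the one on 3R from 7600676 to 7607058, with a cluster of 4445 bp over 69.6% of its 6383 bp. In replicate 2 the clusters that met the other 4 covered 36.1 to 77.1% of them.

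For a minority of members, whether they were 1 cluster or several depended on the replicate. In each replicate 1 unbroken cluster overlapped 269 of the 443 members (60.7%, interval 56.0 to 65.3%), against 57.8% of all autosomal clusters. That background is lowered by the clusters under 2000 bp, of which 25.3% were 1 cluster in each replicate because most were not found in both. The share was 87.5% at 2000 to under 3000 bp and 86.7% at 3000 to under 4000 bp, so members were less often unbroken than the clusters nearest to them in width. Another 79 members (17.8%) were several clusters in replicate 1 and 1 in replicate 2, 38 (8.58%) were the reverse, and 52 (11.7%) were several in each. Replicate 1 broke up more members than replicate 2, at 131 against 91.

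X clusters of equal width were broken up more often than the members in these libraries. Only 89 of 255 (34.9%, interval 29.1 to 41.1%) were 1 cluster in each replicate, and 150 (58.8%) were several clusters in at least 1 replicate, against 170 members (38.4%, interval 33.8 to 43.1%). The X clusters were wider, with a median of 6642 bp, and wider members were broken up more: the unbroken share was 71.8% at 4000 to under 5000 bp and 30.8% at 8000 bp or more. The share of clusters that were several in at least 1 replicate was close at 4000 to under 5000 bp, at 28.8% of X clusters and 26.9% of members. It was 52.6% against 43.2% up to 6000 bp, 58.6% against 47.9% up to 7000 bp, 15 of 20 against 20 of 31 clusters up to 8000 bp, and 81.1% against 69.2% above. A lower share of X clusters than of members was found in both replicates. Among those found in both, the shares were 32.3% against 26.9% at 4000 to under 5000 bp and 68.0% against 48.9% up to 7000 bp. The X share was also the higher in the other classes. None of these differences was tested. Narrow autosomal clusters were rarely broken up, at 44 of 3620 (1.22%).

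**Figure D2:**
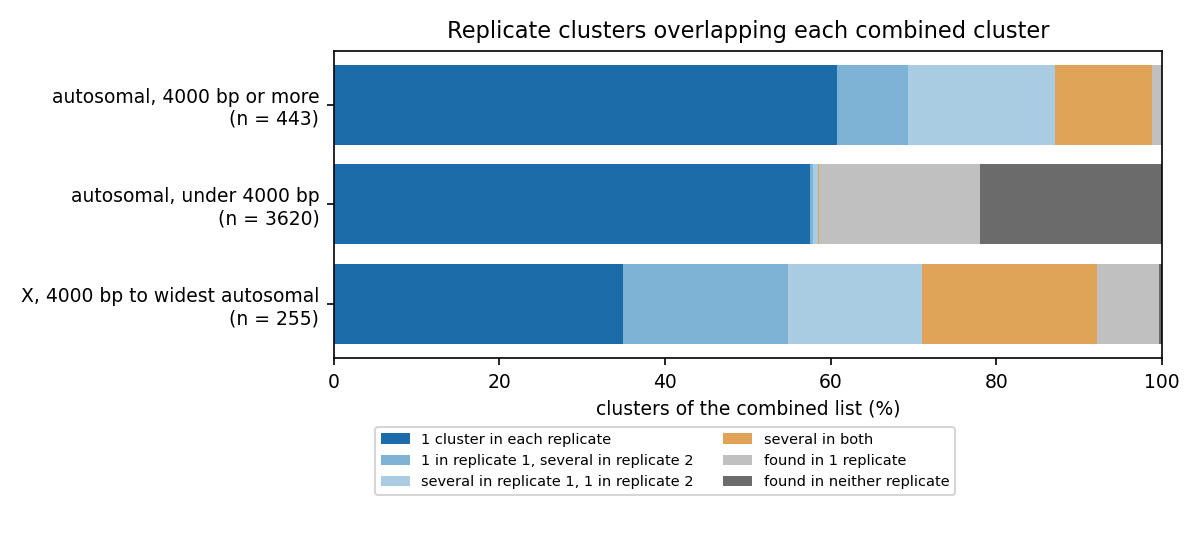
Share of combined-list clusters in % (horizontal axis) by how many clusters of each replicate list overlap them, for the 443 members, the 3620 narrow autosomal clusters and the 255 X clusters of equal width. Members were nearly all found in both replicates and were 1 cluster in each in 60.7%, against 34.9% on the X.

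The breaks inside members were short. The widest gap of a broken member had a median of 247 bp in replicate 1 (131 members) and 176 bp in replicate 2 (91 members), and was under 500 bp in 89 and 72 of them. The largest gap was 2220 bp in replicate 1 and 1519 bp in replicate 2. Most broken members were in 2 pieces, 122 of 131 in replicate 1 and 89 of 91 in replicate 2. The longest piece still took up a median of 50.3% of the member in replicate 1 and 55.0% in replicate 2. That piece had a median width of 2706 bp (replicate 1) and 3055 bp (replicate 2), so a broken member was usually a pair of clusters under 4000 bp lying close together.

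The members split most had scores on both sides of the median of all members, 0.68. By clusters counted over both replicates, 1 member had 6 and 4 members had 5, with scores of 0.42 to 0.77. Of these, 3 are named, the ties being broken by arm and start. On 2R from 8057614 to 8064297 each replicate held 3 clusters, the longest of which measured 2122 and 2214 bp, and the score was 0.42. On 3L from 16582939 to 16588886 (score 0.45) replicate 1 held 3 and replicate 2 held 2, the longest of 2019 bp and 3878 bp. The other was the wide 2R member from 19941917 described above. The wide 3R member from 12072175, with 4 and 1 clusters and a score of 0.71, was among those tied. Unbroken members had a higher median score, 0.74 (n = 269), than those broken up in at least 1 replicate, 0.61 (n = 170), although the latter were wider (median 5513.5 against 4755 bp). This order held in each of the 5 width classes, by 0.075 to 0.39.

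A width of 4000 bp was reached in each replicate by fewer than 50% of the members. The longest overlapping cluster was at least 4000 bp in 164 members (37.0%) in both replicates, in 129 (29.1%) in replicate 2 only and in 24 (5.42%) in replicate 1 only. In 126 members (28.4%) neither replicate held a cluster of that width. Broad clusters were therefore more numerous in the combined list than in either replicate list, which held 188 (6.47% of its autosomal clusters) and 296 (9.25%), a mean of 242 ± 76.4 (SD, n = 2). All 188 broad clusters of replicate 1 overlapped a member, and so did 293 of the 296 of replicate 2. The other 3, of at most 5454 bp, met combined clusters under 4000 bp.

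**Figure D3:**
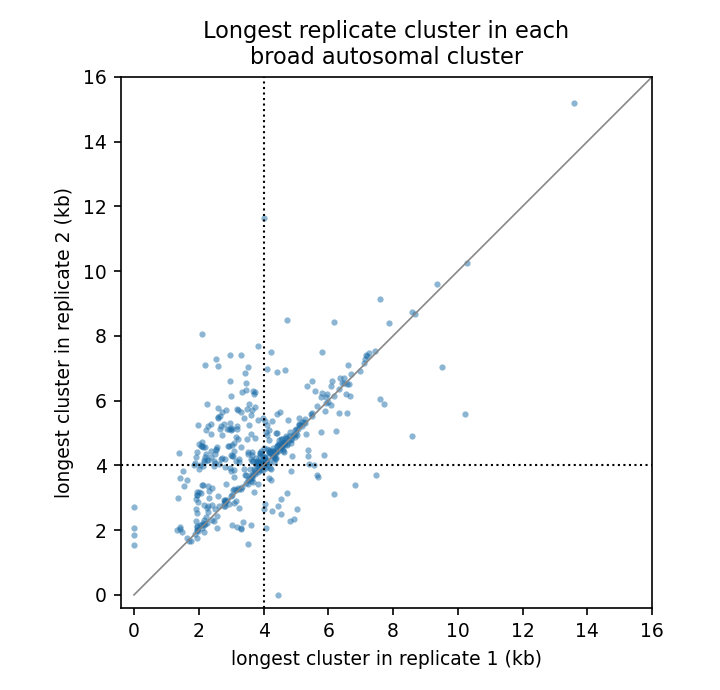
Width in kb of the longest overlapping cluster in replicate 1 (horizontal axis) and replicate 2 (vertical axis), 1 point per member, with dotted lines at 4 kb and a line of equal width. Many points lie above the line at the left, that is 129 members reached 4000 bp in replicate 2 only against 24 in replicate 1 only.

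The members broad in both replicates had higher scores. Their median was 0.82 (quartiles 0.68 and 0.94), against 0.52 (quartiles 0.42 and 0.64) for the 126 that were under 4000 bp in each replicate. The former were also wider in the combined list, with a median of 5411 bp against 4591 bp. The scores were not compared within width classes here. The latter were also covered less, with a median of 71.4% of the member in replicate 1 and 78.8% in replicate 2, against 95.7% and 98.0% for the former. Over all members the median covered share was 89.0% in replicate 1 and 96.7% in replicate 2 (mean 92.9 ± 5.42%, SD, n = 2). X clusters of equal width were covered to 70.0% and 68.6%. The X shares differed less between the replicates than those of the members.

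For the 269 members that were 1 cluster in each replicate, position and score can be set side by side. Their median width was 4099 bp in replicate 1, 4454 bp in replicate 2 and 4755 bp in the combined list, and the cluster was wider in replicate 2 in 202 of them (75.1%). The left edges lay a median of 104 bp apart and the right edges 90 bp, and in 128 members (47.6%) both edges were within 200 bp. Scores of the same member in the replicate lists, which were not brought to a common scale, had Pearson's r of 0.87 and Spearman's rho of 0.84, and widths had 0.83 and 0.73. These values are across members and are given as descriptions.

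Many broad clusters lay near another. The median gap from a member to the nearest other member was 24.1 kb, and 274 of the 443 (61.9%) had another within 50 kb. This share was 36.2% among the 188 broad clusters of replicate 1 alone and 47.0% among the 296 of replicate 2 alone, and 31.4% among the 105 members of 6000 bp or more, which are sparser sets. With that limit, 104 runs of 2 or more members were formed and 169 members stood alone. Of these runs, 64 held 2 members, 27 held 3, 7 held 4 and 6 held 5 or more. The 40 runs of 3 or more held 146 members. Members in these runs were like those that stood alone in score (median 0.67 against 0.65), in width (median 5069.5 against 4919 bp) and in the share that was 1 cluster in each replicate (59.6% against 60.9%). The share that reached 4000 bp in both replicates was 33.6% in the runs and 39.6% among those alone.

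The largest run lay on 2R from 19736674 to 19952658. It held 10 members of 4.10 to 10.7 kb in 216 kb, with scores of 0.48 to 1.29, and 20 narrow clusters lay between them. Its strongest member, from 19793173 to 19800019, was 1 cluster in each replicate, of 6471 and 6694 bp. Next was a run on 3R from 11066607 to 11237447, with 7 members of 4.01 to 7.47 kb in 171 kb, scores of 0.48 to 0.81 and 13 narrow clusters. The third, on 2L from 4962636 to 5060536, held 5 members of 4.38 to 7.00 kb in 97.9 kb, scores of 0.42 to 1.01 and 7 narrow clusters. In these runs, 6 of the 10, 4 of the 7 and 3 of the 5 members were 1 cluster in each replicate, so that the runs held unbroken and broken members together. The densest of the runs of 5, singled out after its values were seen, lay on 3R from 7033720 to 7071551, where 5 members filled 64.4% of 37.8 kb.

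Other members were far from any other. No other member lay within 200 kb of 61 of the 443 (13.8%). The most isolated, on 3L from 4286381 to 4290476, was 836 kb from the next. Those on 2R from 1644414 to 1649699 and on 2L from 15005169 to 15011293 were 664 kb and 642 kb from the next. These 3 were named after their values were seen. They were not isolated from the mark itself, since a narrow cluster lay 0.509, 0.379 and 3.61 kb away.

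Spacing on the X was tighter, but so was the density. X clusters of equal width had another of their kind at a median gap of 7.06 kb and within 50 kb in 85.5% (218 of 255). They numbered 11.4 per Mb of arm against 4.59 per Mb for the members, and 37.5 per Mb for narrow autosomal clusters, of which 97.8% had another within 50 kb. A denser set lies closer together by its number alone, and no placement at random was drawn, so these shares are not compared further. A measure that does not rest on distance is the next cluster along the arm. After a broad cluster the next was also broad in 62 of 443 cases (14.0%), and after a narrow one in 381 of 3616 (10.5%). These shares are close, and the difference was not tested.

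**Figure D4:**
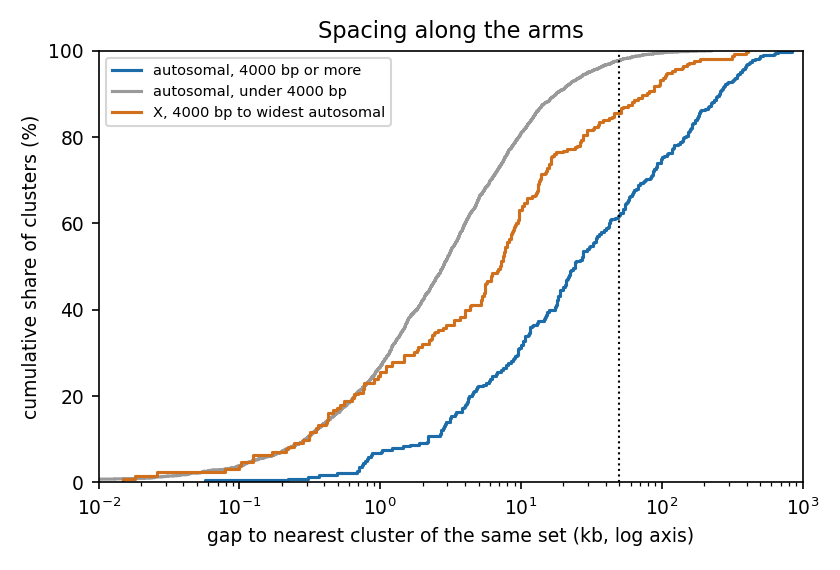
Cumulative share of clusters in % (vertical axis) against the gap in kb to the nearest cluster of the same set (log axis), with a dotted line at 50 kb. At 50 kb the curves stand at 61.9% for the members, 85.5% for X clusters of equal width and 97.8% for narrow autosomal clusters, in the order of their density per Mb.

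Narrow clusters were usual neighbours of broad ones, as they were of narrow ones and of X clusters of equal width. A cluster under 4000 bp lay within 5 kb of 317 members (71.6%, interval 67.1 to 75.7%), at a median gap of 2.20 kb. Narrow autosomal clusters had another narrow cluster within 5 kb in 65.6% of cases, at a median of 2.80 kb. For X clusters of equal width the share was 74.9% and the median gap 0.781 kb. The share of the members thus lay between those of the other sets, and the differences were not tested.

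Along the arms, members were present almost everywhere, with a few dense stretches. In the 95 whole bins of 1 Mb the median number was 4 and the highest 13. No member lay in 4 bins, 1 to 3 lay in 36 bins, 4 to 7 in 40 and 8 or more in 15. The 10 fullest bins held 108 of the 435 members in whole bins (24.8%). The fullest was 2R from 19 to 20 Mb, with 13 members beside 57 narrow clusters, and the next was 3R from 5 to 6 Mb, with 12 beside 70. Directly after it, 3R from 6 to 7 Mb held 0 members beside 33 narrow clusters, and 3R from 7 to 8 Mb held 11 beside 41. The other bins without a member were 2L from 3 to 4 Mb (37 narrow clusters), 2L from 17 to 18 Mb (14) and 3L from 23 to 24 Mb (9). Bins with more narrow clusters tended to hold more broad ones (Pearson's r 0.55, Spearman's rho 0.50 over 95 bins, which share the same libraries). The first 2L bin without a member had as many narrow clusters as the median bin, 37.

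When each arm was divided into 4 equal parts, counted from the end at the centromere, the broad share of clusters was 10.6%, 12.4%, 8.54% and 12.4%. The third part was below both of its neighbours on 2L, 2R and 3R but not on 3L. It was lowest on 2R, where 13 of 253 clusters were broad (5.14%), beside 41 of 270 (15.2%) in the outermost part of the same arm. On 3L the share was between 8.29% and 10.4% in all 4 parts. On 3R it was 12.8%, 14.8%, 9.68% and 12.2%, and on 2L it was 9.47%, 13.1%, 10.1% and 11.9%. None of these was tested.

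**Figure D5:**
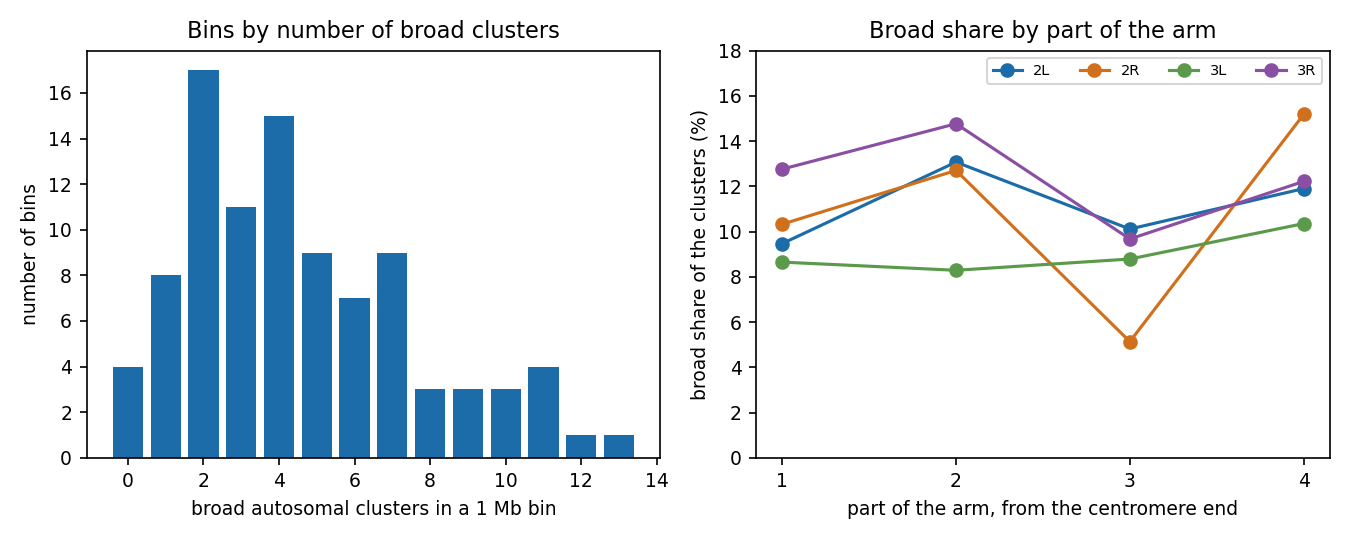
Left, number of 1 Mb autosome bins (vertical axis) by the number of members they hold; most of the 95 bins hold few members and 15 hold 8 or more. Right, members as a share of all clusters in % for each of 4 equal parts of an arm, counted from the centromere end, with 1 line per arm. The line of 2R runs from 5.14% in the third part to 15.2% in the outermost.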

How the data were processed

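ChIP-seq of H4K16ac in heads of Oregon-R flies was deposited as 3 region lists (GFF3, 1-based, with coordinates of FlyBase release 5 as the file headers state), with 1 score per region that the authors set. Per the submitters' processing notes, Bowtie 0.12.7 was used. The sources used here do not give the region caller, its thresholds, the scale of the score or how the replicates were combined. A score was above 0 for each enriched region, and depleted regions were set aside.

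Samples were grouped by their titles into ChIP and input, and only ChIP lists were used. Width is end minus start plus 1. Overlap of 1 bp counted as found. Gaps run from edge to edge. X clusters of equal width are those from 4000 bp to the width of the widest member, and were compared in classes of 1000 bp, with all of 8000 bp or more in 1 class, weighted by the members. Replicate values are mean ± SD (n = 2). Shares carry exact Clopper-Pearson 95% intervals. No test was made, since the members were chosen from the same calls and no file of another group was used. Simulated lists with known answers tested the count of overlapping clusters, the 50 kb gap between members and the score difference from X clusters. The other measures were not tested in that way.

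The members, comparisons and alternatives were chosen with earlier results of these data known. Regions were named by rule: the 10 widest, the 5 of highest score, the 3 split most, the 3 largest runs linked by gaps of at most 50 kb, and the 3 regions on each side of 4000 bp. Members found in neither replicate would have been named too, and there were 0. Alternatives were other widths (3000 and 6000 bp), the top-scoring 50% of clusters, merging below 500 bp, other gaps and overlaps, and each replicate left out. Tools were matplotlib 3.10.9, scipy 1.17.1, pandas 2.3.3 and numpy 2.4.6 under Python 3.11.15.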

Additional observations from a re-analysis of the deposited data

How the results depend on the processing

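The number of members was 1022 with a width of 3000 bp or more and 105 with 6000 bp or more. It was 188 and 296 when a single replicate list defined them. Broad clusters scored higher than narrow ones under every alternative run. The difference, 0.29, was 0.25 at 3000 bp, 0.34 at 6000 bp, 0.23 with clusters under 500 bp apart merged and 0.26 to 0.30 in the replicate lists. It was 0.15 against narrow clusters of 2000 bp or more, chosen after seeing the data, and 0.069 in the top-scoring 50%, where the score itself selects. The difference from X clusters of equal width, 0.010, reversed to between -0.20 and -0.057 in the replicate lists. Members and X clusters were drawn anew there, and the cause of the reversal was not tested. The share found in both replicates, 98.9%, was 95.3% at 3000 bp, 96.6% with merging, 70.9% in the top-scoring 50% and 91.9% when 50% of the member had to be covered. With 1 replicate left out it was 99.1 to 99.8%. The unbroken share, 60.7%, was 75.4% at 3000 bp, 41.0% at 6000 bp and 68.1% with merging. It was 56.4% when 50% of the member had to be covered. With 1 replicate left out it was 69.5 to 79.2%, where only 1 list is asked for. The median covered share, 92.9%, was 83.7% in the top-scoring 50%. The share within 50 kb of another, 61.9%, was 80.7% at 3000 bp, 31.4% at 6000 bp, 70.0% with merging and 36.2 to 47.0% in the replicate lists, where the number of members differs by construction. It was 45.1% within 20 kb and 75.2% within 100 kb. The share with a narrow cluster within 5 kb, 71.6%, was 61.0% at 3000 bp, 60.2% with merging and 35.3% in the top-scoring 50%. It was 48.3% within 2 kb and 86.9% within 10 kb. The unknown depth, and the unstated way of combining the replicates, limit what the widths can show.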

Other observations

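Broad clusters were also present on the heterochromatin sequences and on chromosome 4, which the autosomal set leaves out. Clusters of 4000 bp or more numbered 6 of 25 on 2RHet, 3 of 10 on 3RHet, 2 of 5 on 2LHet and 0 of 19 on 3LHet, and all of them were found in both replicates. Their scores ran from 0.49 to 0.78 on 2RHet, from 0.79 to 0.96 on 3RHet and from 0.48 to 0.96 on 2LHet, within the range of the members on the large arms. Chromosome 4 held 1 broad cluster among 62, of 5723 bp with a score of 1.17. On XHet 4 of 19 clusters were broad, with scores of 0.73 to 2.39, and the widest measured 46197 bp. On the unplaced sequence U 1 of 35 was broad, of 6486 bp with a score of 2.35. The highest of these scores were above those of all members on the large arms, and so was the width on XHet. These counts are small, and the sequences were not compared with the arms by a test.

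Depleted regions, which the combined list names apart from the enriched ones, numbered 8 on the 4 large autosome arms. None of them overlapped a member, but both kinds are calls of the same list, so this is not read as a result about the members. The nearest member was 8.04 to 268 kb away (median 28.6 kb), and within 50 kb for 6 of them. The nearest cluster of any width was at a median of 1.49 kb (lowest 0.422 kb), and within 5 kb for 5 of the 8.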
